A study of Homo sapiens with 8 samples.

Results

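The collagens and laminins are the structural chains of fibrillar matrix and basement membrane. They were taken here as every protein-coding gene with a collagen chain symbol (COL, a number, A, a number) or a laminin chain symbol (LAMA, LAMB or LAMC and a number) in GENCODE 44 on GRCh38 that had at least 100 reads summed over the 8 libraries. This left 25 genes of 56 of these families and of 60675 genes in the count tables, and 24 of them, 17 collagens and 7 laminins, are described here. Polyadenylated RNA was sequenced from Panc10.05, a long-established line of human pancreatic adenocarcinoma cells, and from a derivative selected for resistance by culture in rising doses of indisulam. Indisulam is an aryl sulfonamide that brings RBM39, a splicing factor, to the ubiquitin ligase receptor DCAF15 for degradation. The 4 groups held 2 libraries each. Parental untreated cells had no drug, and parental indisulam cells had 2 µM for 18 h. Resistant indisulam cells were grown in 2 µM without a break. Resistant untreated cells were the same resistant line after a holiday of a week from the drug, by the study's methods. The drug comparison in the resistant line therefore sets sustained exposure against withdrawal, while that in the parental line sets a short exposure against none. The labels disagree on the cells: their growth notes speak of A549 and their titles of Panc10.05, which was used here. Libraries within a group are technical replicates by the study's account, so the p-values below measure the spread between libraries and not between independent cultures or independently derived resistant lines.

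Laminins are heterotrimers of an alpha, a beta and a gamma chain that polymerise at the basal face of epithelia and bind integrins and dystroglycan. LAMA3 and LAMB3 are chains of the laminin of hemidesmosomes, where it holds integrin alpha 6 beta 4 and the transmembrane collagen COL17A1 and is anchored to the stroma by COL7A1 fibrils, and trimers with LAMA5 are common in epithelial basement membranes. Collagens are trimers too: COL4 chains form the network of basement membranes, fibril-forming collagens such as COL1A1 carry tissue tension, FACIT collagens sit on fibrils, and in pancreatic tumours most of the fibrillar collagen is known to come from stromal cells and not from the carcinoma cells.

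The libraries held 65266253 to 108002436 reads in genes, and 22728 to 25263 genes had at least 1 read. The quasi-likelihood test of edgeR was run over 16661 genes, and a gene was called when its p, adjusted by Benjamini-Hochberg over all of them, was under 0.05. All 24 genes passed the filter on low counts, with all 4 groups and with any 1 group left out. With the parental groups alone, 23 of the 24 passed and COL9A3 did not. A change is a log2 fold change with its standard error (SE). CPM are counts scaled to a common library total with TMM, and FPKM are CPM per kilobase of the gene's exons. Ductal epithelial markers were abundant, with a summed level of 6686 to 6953 CPM over 10 genes in parental and of 11240 to 12780 CPM in resistant libraries. Of 12 markers of fibroblasts or stellate cells, 3 (DCN, LUM and PDPN) had no read in any library and 4 were abundant enough to test, and their summed level was 2.69 to 2.83 CPM in untreated parental, 2.36 to 2.60 in treated parental, 3.04 to 3.51 in untreated resistant and 5.21 to 5.90 in treated resistant libraries. The part of this small rise in the collagen results below was not tested. In bulk RNA, fewer cells of a kind and less RNA per cell cannot be told apart.

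The laminins made up 94.0% of the reads of the 24 genes and the collagens 5.96%. Only 8 of the 24 genes reached 1 FPKM in parental untreated cells, the laminins LAMB3, LAMC1, LAMA5, LAMB1, LAMB2 and LAMA3 and the collagens COL17A1 and COL18A1. Lengths matter here: the union of annotated LAMB1 exons spans 18592 bases and its longest transcript 6737, and the 6 laminins kept to levels of 1.88 to 62.5 FPKM by the first length. The other 16 genes lay between 0.0143 and 0.5001 FPKM by the same length. By the longest transcript 9 genes reached 1 FPKM in parental untreated cells, with COL13A1 at 1.56 FPKM joining those named. Of the 31 family genes under the minimum, 5 had no read in any library (COL25A1, COL22A1, COL10A1, COL5A1 and COL6A2), 20 had 1 to 14 reads and 6 had 15 to 99. The genes nearest to the minimum were COL9A3 with 145 and COL28A1 with 174 reads inside it, and COL4A1 with 98 and LAMB4 with 92 reads outside it.

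Several chains were read without the partners of their usual trimers. COL6A1 had 2678 reads, whereas COL6A2 had 0 and COL6A3 had 13. COL1A1 had 1414 reads, whereas COL1A2 had 11 and COL3A1 had 4. COL5A2 had 560 reads and COL5A1 none, and the main basement membrane pair COL4A1 and COL4A2 had 98 and 37 reads against 2083 for COL4A4. COL4A5, which joins COL4A3 and COL4A4 in 1 trimer and COL4A6 in another, had 7 reads. A count of 0 over the 8 libraries allows a level of up to 0.00448 CPM (3 counts). For collagens VI, I and V, the transcript of 1 chain was thus measured with those of its partners at or near 0, and protein was not measured.

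In resistant cells LAMA3 and LAMB3, genes of the hemidesmosomal laminin, stood higher than in parental cells, both untreated and on the drug. LAMA3 (ENSG00000053747, chromosome 18, 23689453 to 23956222, plus strand), its alpha chain, was at 26.7 and 27.9 CPM in untreated parental, 27.2 and 28.0 in treated parental, 156 and 154 in untreated resistant and 96.8 and 98.9 in treated resistant libraries. LAMB3 (ENSG00000196878, chromosome 1, 209614870 to 209652425, minus strand), its beta chain, was at 293 and 288, 307 and 292, 685 and 709, and 677 and 660 CPM in the same order. Every resistant library lay above every parental library for both genes. Untreated resistant cells had 5.68 times the parental level of LAMA3 (log2 fold change 2.51 ± 0.03 SE, adjusted p = 8.03e-26) and 2.40 times that of LAMB3 (1.26 ± 0.03, adjusted p = 8.97e-21). On indisulam the differences were 1.83 ± 0.03 and 1.16 ± 0.03 log2 units.

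**Figure D1:**
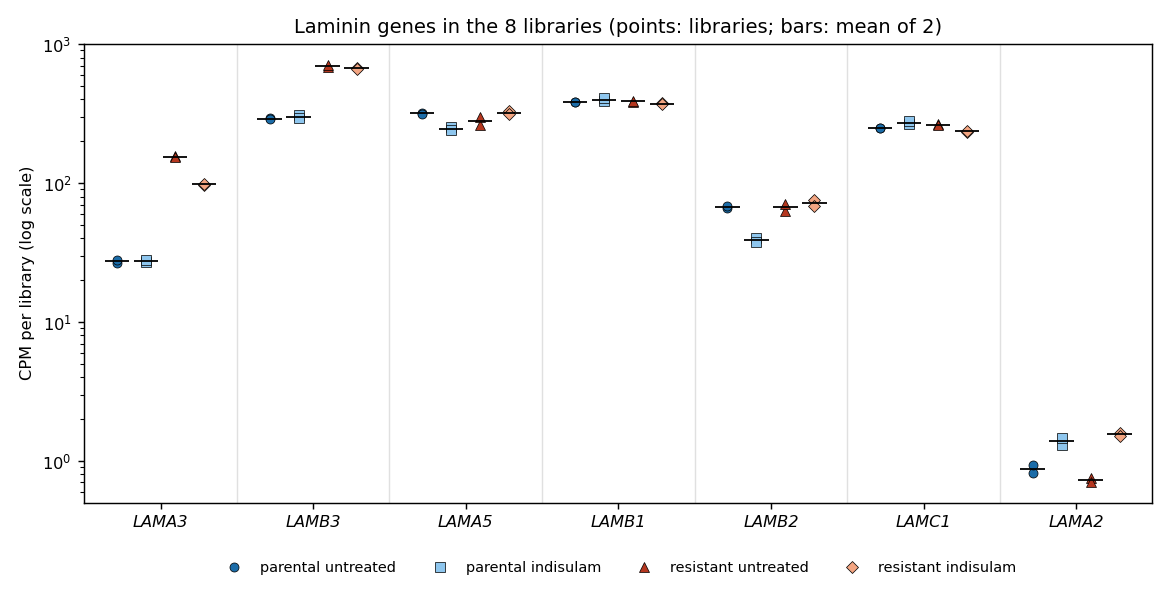
CPM on a log axis of the 7 laminin genes in each library (points, 2 per group) with group means (bars). LAMA3 and LAMB3 lie higher in all 4 resistant libraries, LAMB2 and LAMA5 are lowest in parental indisulam libraries, and LAMA2 is near 1 CPM throughout.

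The drug left both genes near their untreated level in parental cells and lowered LAMA3 in resistant cells. In parental cells LAMA3 changed by 0.01 ± 0.04 log2 units (adjusted p = 0.772) and LAMB3 by 0.04 ± 0.03 (adjusted p = 0.219). In resistant cells LAMA3 fell by 0.66 ± 0.03 log2 units on the drug (adjusted p = 1.39e-14), to 0.631 of its level during the holiday. LAMB3 was at -0.06 ± 0.03 (adjusted p = 0.0944). After a correction for GC content and length LAMB3 was called on the drug in both lines. It was then higher in parental cells (0.18, adjusted p = 2.52e-07) and lower in resistant cells (adjusted p = 0.00212).

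The windows just upstream of the starts of LAMA3 and LAMB3 are printed because these genes stood higher together in resistant cells, and those of COL17A1 and COL7A1 because they encode the collagens of the same junction. Sequences are from RefSeq on GRCh38.p14, whose promoter table held an entry for 20 of the 24 genes (27 starts) and none for COL6A1, COL1A1, COL5A2 and COL9A3. Each window holds up to 250 bases before the start, read 5′ to 3′ on the gene's strand. Capitals mark matches, on either strand, to an AP-1 motif (TGANTCA, where N is any base), a TATA box (TATAAA) and a GC box (GGGCGG), which do not overlap one another here. The LAMA3 window (chr18:23872770-23873019, plus strand) lies before the start of the shorter transcripts, inside the gene, and the counts of LAMA3 join shorter and longer transcripts. The first LAMB3 window (chr1:209652426-209652675, minus strand) lies before its outermost start, and the second (chr1:209651395-209651624, minus strand) before a start in its first intron. The windows of COL17A1 and COL7A1 are chr10:104085881-104086130 and chr3:48595330-48595579, both on the minus strand.
LAMA3: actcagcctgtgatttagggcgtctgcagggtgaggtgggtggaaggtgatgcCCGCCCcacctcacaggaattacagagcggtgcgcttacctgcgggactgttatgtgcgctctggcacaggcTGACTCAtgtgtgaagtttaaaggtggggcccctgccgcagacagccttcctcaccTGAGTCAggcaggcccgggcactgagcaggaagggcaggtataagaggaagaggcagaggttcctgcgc
LAMB3, outer start: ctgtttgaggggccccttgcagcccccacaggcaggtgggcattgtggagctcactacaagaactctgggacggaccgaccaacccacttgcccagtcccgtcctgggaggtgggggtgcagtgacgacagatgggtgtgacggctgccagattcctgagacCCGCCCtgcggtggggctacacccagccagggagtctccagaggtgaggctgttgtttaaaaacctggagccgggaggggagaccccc
LAMB3, inner start: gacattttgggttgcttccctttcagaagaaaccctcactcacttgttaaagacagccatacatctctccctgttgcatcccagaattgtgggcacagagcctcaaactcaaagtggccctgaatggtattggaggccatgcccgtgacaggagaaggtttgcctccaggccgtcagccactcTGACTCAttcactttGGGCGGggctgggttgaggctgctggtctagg
COL17A1: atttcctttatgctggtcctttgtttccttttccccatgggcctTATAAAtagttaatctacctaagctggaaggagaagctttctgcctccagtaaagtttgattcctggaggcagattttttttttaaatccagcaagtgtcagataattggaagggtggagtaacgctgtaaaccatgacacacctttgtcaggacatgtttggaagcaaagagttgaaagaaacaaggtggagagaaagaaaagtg
COL7A1: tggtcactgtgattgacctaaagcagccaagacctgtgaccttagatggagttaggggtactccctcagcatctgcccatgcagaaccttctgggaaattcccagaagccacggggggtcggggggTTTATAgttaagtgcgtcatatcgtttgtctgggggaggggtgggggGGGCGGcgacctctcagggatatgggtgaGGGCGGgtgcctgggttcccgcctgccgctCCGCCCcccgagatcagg
The LAMA3 window held 2 AP-1 matches, whose first bases were 125 and 69 bases from the end of the window, and the inner LAMB3 window held 1. These were the only AP-1 matches among the 27 starts of the 20 genes with an entry, so 2 of 27 starts held one, against 6.57% of all 35116 starts in the table. The COL17A1 and COL7A1 windows each held a match to the letters of the TATA box, which 4 of 27 starts of these genes and 10.7% of all starts held. Their first bases were 206 (COL17A1) and 124 (COL7A1) bases from the end of the window. The COL7A1 match was on the strand opposite to the gene. GC boxes were found at 19 of 27 starts and at 42.6% of all starts. The motifs were chosen after the expression values were seen. A match describes letters in the window and no binding was measured.

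LAMB1 and LAMC1 differed little between the lines. LAMB1 (ENSG00000091136, chromosome 7, 107923799 to 108003213, minus strand), the beta chain of the widespread laminins, was at 383 and 383 CPM without and 387 and 408 CPM with the drug in parental cells, and 386 and 390 CPM without and 376 and 370 CPM with it in resistant cells. LAMC1 (ENSG00000135862, chromosome 1, 183023420 to 183145592, plus strand), the gamma chain of most laminins, was at 249 and 247, 266 and 278, 266 and 262, and 234 and 238 CPM. Both genes moved by at most 0.20 log2 units in any comparison of groups. LAMC1 was raised by the drug in the parental line (0.13 ± 0.03, adjusted p = 2.78e-04) and lowered in the resistant line (-0.16 ± 0.03, adjusted p = 5.95e-05). The parental call was lost without parental indisulam library 2 (adjusted p = 0.0602).

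LAMB2 and LAMA5 fell on the drug in parental cells and had no such fall in resistant cells. LAMB2 (ENSG00000172037, chromosome 3, 49121114 to 49133118, minus strand), an alternative beta chain, was at 66.5 and 67.9 CPM in untreated parental, 40.2 and 37.4 in treated parental, 62.5 and 71.2 in untreated resistant and 75.1 and 68.2 in treated resistant libraries. It fell by 0.79 ± 0.08 log2 units in parental cells (adjusted p = 1.10e-04), and its value in resistant cells was 0.10 ± 0.07 (adjusted p = 0.318, and 0.00626 without resistant untreated library 2). LAMA5 (ENSG00000130702, chromosome 20, 62307955 to 62367312, minus strand), the main alpha chain of these cells, was at 321 and 312, 253 and 239, 262 and 299, and 329 and 314 CPM. It fell by 0.36 ± 0.07 in parental cells (adjusted p = 0.00414), and its value in resistant cells was 0.20 ± 0.07 (adjusted p = 0.054). On the drug, LAMB2 was 1.84 times as high in resistant as in parental cells (0.88 ± 0.08, adjusted p = 4.41e-05) and LAMA5 1.31 times (0.39 ± 0.07, adjusted p = 0.00250). After a correction for GC content and length the difference of LAMA5 was gone (-0.01, adjusted p = 0.63). Whether the rise of LAMA5 on the drug in resistant cells was called depended on the processing. It was called with DESeq2 size factors, with library totals alone, by a DESeq2 Wald test and with no filter on low counts. The same held with only the groups compared and after the GC and length correction. It was also called without either resistant untreated library and without either parental indisulam library. Its value was 0.07 to 0.29 log2 units over 17 alternatives. LAMA5 shares exon bases with ADRM1, and LAMB1 with DLD, on opposite strands, and the strand setting of the counting is not given in the sources used here, so reads in those bases could belong to either gene. LAMA2, the alpha chain of muscle and nerve laminins, was at 0.813 and 0.936, 1.29 and 1.47, 0.756 and 0.708, and 1.60 and 1.52 CPM. LAMA2 rose on the drug in both lines, by 0.66 ± 0.15 log2 units in parental (adjusted p = 5.68e-04) and 1.08 ± 0.16 in resistant cells (adjusted p = 6.98e-06), at a mean level of at most 0.059 FPKM.

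As a share of the summed FPKM of the alpha or the beta genes, LAMA3 made up 7.83% ± 0.382 (SD, n = 2) of alpha chains in untreated parental, 9.93% ± 0.539 in treated parental, 35.3% ± 2.32 in untreated resistant and 23.0% ± 0.862 in treated resistant cells. LAMA5 made up nearly all of the rest, from 92.0% in parental untreated to 64.6% in resistant untreated cells. LAMB3 made up 67.3% ± 0.375, 70.4% ± 1.13, 83.1% ± 0.133 and 82.5% ± 0.178 of beta chains in the same order. The shares of both LAMA3 and LAMB3 were higher in every resistant library than in every parental one. The shares depend on the length used. With the longest transcript of each gene, LAMB3 made up 49.6% of beta chains in parental untreated and 70.0% in resistant untreated cells, and LAMA3 8.44% and 37.2% of alpha chains.

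**Figure D2:**
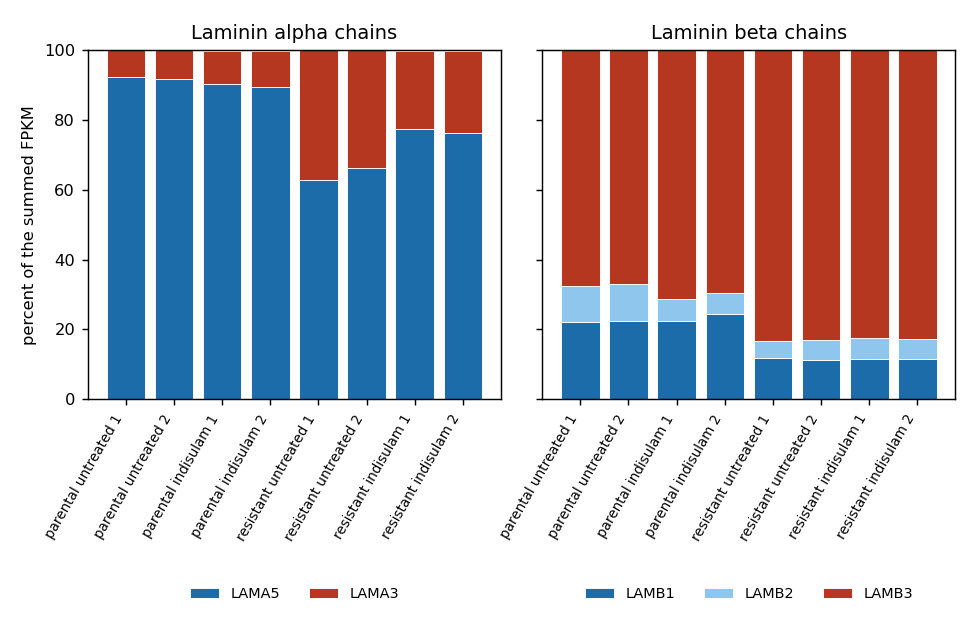
Percent of the summed FPKM of the laminin alpha and beta genes held by each gene in the 8 libraries (stacked bars, 1 per library). The shares of LAMA3 and LAMB3 (red) are larger in the 4 resistant libraries, with LAMA3 at 35.3% of alpha chains in untreated and 23.0% in treated resistant cells.

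COL17A1, the transmembrane collagen that binds the hemidesmosomal laminin, had another pattern than its laminin partners. COL17A1 (ENSG00000065618, chromosome 10, 104031286 to 104085880, minus strand) was at 33.4 and 33.5 CPM without and 27.9 and 26.6 CPM with the drug in parental cells, and 14.2 and 14.4 CPM without and 31.1 and 29.99 CPM with it in resistant cells. The 2 resistant untreated libraries were lowest, at 0.427 of the parental untreated level (log2 fold change -1.23 ± 0.04 SE, adjusted p = 1.20e-17). On the drug COL17A1 rose 2.14-fold in resistant cells (1.09 ± 0.04, adjusted p = 1.14e-15) and fell by 0.29 ± 0.04 log2 units in the parental line (adjusted p = 5.89e-07). LAMA3 had the opposite signs in the resistant line, higher than in parental cells during the holiday and lower on the drug than off it. On indisulam the lines differed by 0.16 ± 0.04 log2 units (adjusted p = 8.80e-04), a value that changed sign after a correction for GC content and length (-0.07, adjusted p = 0.0915).

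COL7A1 (ENSG00000114270, chromosome 3, 48564073 to 48595329, minus strand), which forms the anchoring fibrils, was low but higher in resistant cells. It was at 0.265 and 0.309 CPM in untreated parental, 0.227 and 0.0517 in treated parental, 0.635 and 0.616 in untreated resistant and 1.04 and 0.925 in treated resistant libraries. All resistant libraries lay above all parental ones, by 1.12 ± 0.28 log2 units in untreated cells (adjusted p = 0.00134) and 2.81 ± 0.31 on the drug (adjusted p = 5.31e-08). The difference on the drug was 2.12 without parental indisulam library 2 and 4.22 without library 1, and it was called in both cases. Its fall on the drug in parental cells (-1.05 ± 0.39, adjusted p = 0.0257) rested on parental indisulam library 2, which had 4 reads of COL7A1. Without that library the value was -0.36 (adjusted p = 0.467), and without parental untreated library 2 it was -0.93 (adjusted p = 0.112). Its rise in resistant cells (0.64 ± 0.23, adjusted p = 0.0231) was lost when any 1 resistant library was left out (adjusted p from 0.0622 to 0.124).

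COL4A3 and COL4A4, chains of the type IV network of kidney and other specialised basement membranes, are transcribed away from each other from neighbouring starts. Their RefSeq starts are 419 bases apart, and 170 bases lie between the COL4A3 start and the outermost annotated start of COL4A4 (chr2:227164454-227164623, plus strand). This shared stretch is printed because both genes fell on the drug in parental cells and stood higher in treated resistant than in treated parental cells. Capitals mark the 2 GC boxes, and no TATA box or AP-1 match was found in it.
COL4A3-COL4A4 interval: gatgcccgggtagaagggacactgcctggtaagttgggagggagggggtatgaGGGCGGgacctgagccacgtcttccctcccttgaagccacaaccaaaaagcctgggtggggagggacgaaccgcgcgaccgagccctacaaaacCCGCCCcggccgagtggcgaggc
COL4A4 (ENSG00000081052, chromosome 2, 227002714 to 227164453, minus strand) was at 2.59 and 2.56 CPM without and 1.47 and 1.74 CPM with the drug in parental cells, and 3.87 and 3.99 CPM without and 4.78 and 4.28 CPM with it in resistant cells. COL4A3 (ENSG00000169031, chromosome 2, 227164624 to 227314792, plus strand) was at 0.530 and 0.636, 0.320 and 0.284, 0.689 and 0.693, and 0.712 and 0.769 CPM. Parental indisulam libraries were lowest for both. On the drug COL4A4 fell by 0.68 ± 0.12 (adjusted p = 2.17e-05) and COL4A3 by 0.95 ± 0.23 log2 units (adjusted p = 9.71e-04) in parental cells, whereas in resistant cells the values were 0.20 ± 0.10 (adjusted p = 0.0906) and 0.11 ± 0.19 (adjusted p = 0.661). On the drug, resistant cells exceeded parental cells by 1.49 ± 0.11 for COL4A4 (adjusted p = 2.12e-11) and by 1.30 ± 0.22 for COL4A3 (adjusted p = 1.84e-05). COL4A3 also shares exon bases with the antisense gene MFF-DT, to which 86.5% of their joint reads went, so part of its count could belong there. COL4A6, a chain of another type IV network, was at 1.13 and 1.00, 1.33 and 1.498, 1.15 and 0.955, and 1.07 and 1.08 CPM. Its rise on the drug in parental cells (0.41 ± 0.15, adjusted p = 0.0202) was lost without parental untreated library 2 (adjusted p = 0.139) or parental indisulam library 2 (0.191). On the drug it was lower in resistant than in parental cells (-0.40 ± 0.15, adjusted p = 0.0253), which was lost without parental indisulam library 2 (adjusted p = 0.201) or either resistant indisulam library (0.0777 and 0.0941). COL4A1 and COL4A2, the main type IV chains, stood at 0.0890 to 0.231 CPM and at 0 to 0.0890 CPM over the libraries.

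**Figure D3:**
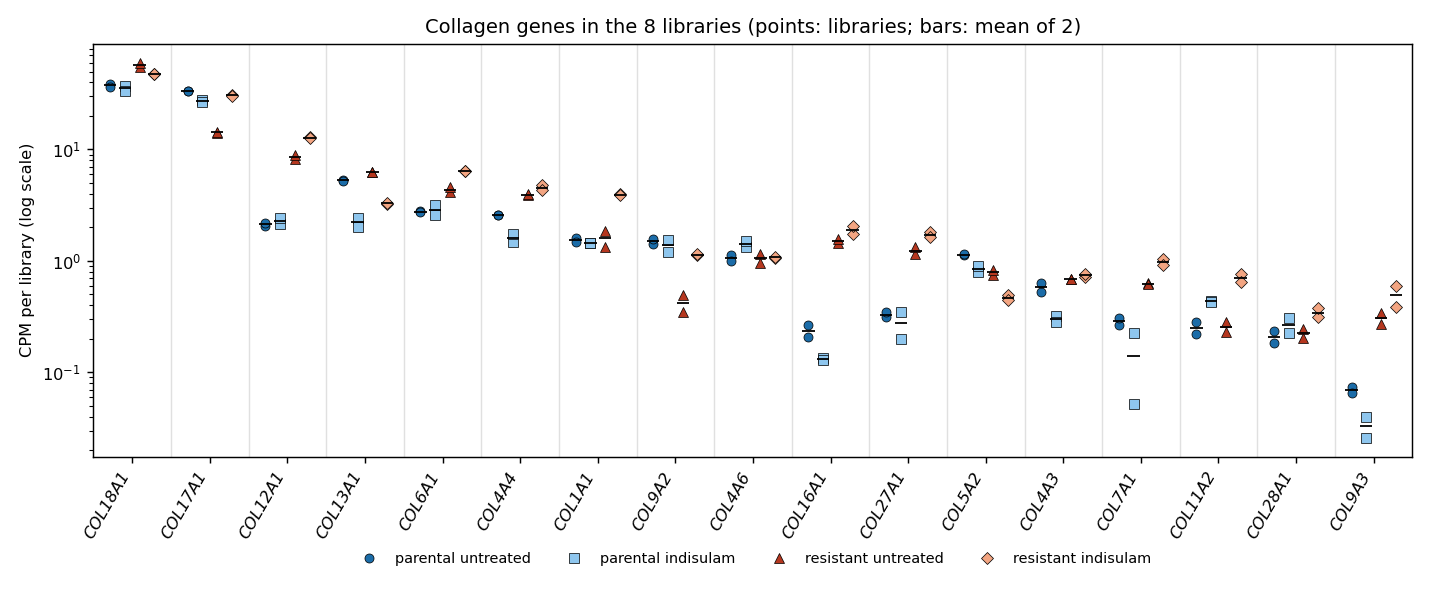
CPM on a log axis of the 17 collagen genes in each library (points, 2 per group) with group means (bars), ordered by summed reads. COL18A1 and COL17A1 stand above 10 CPM and the other genes below 13 CPM, and COL16A1, COL27A1, COL12A1 and COL9A3 lie higher in all resistant than in all parental libraries.

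Among the fibril-forming collagens, COL1A1 (ENSG00000108821, chromosome 17, 50184101 to 50201632, minus strand), the main chain of collagen I, was raised in resistant indisulam cells. It was at 1.61 and 1.48 CPM in untreated parental, 1.44 and 1.45 in treated parental, 1.34 and 1.85 in untreated resistant and 3.96 and 3.89 in treated resistant libraries. It rose on the drug by 1.31 ± 0.13 log2 units in resistant cells (adjusted p = 8.32e-09), and its value in parental cells was -0.10 ± 0.14 (adjusted p = 0.578). In the same resistant indisulam libraries TAGLN, a marker on the fibroblast list that epithelial cells can also express, rose from 2.01 to 3.87 CPM on average (0.94 log2 units), and their part in each other was not tested. COL1A2 and COL3A1, which fibroblasts express together with COL1A1, had 11 and 4 reads in all 8 libraries.

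COL5A2, a chain of the collagen that seeds fibrils, was at 1.13 and 1.14, 0.787 and 0.904, 0.743 and 0.832, and 0.489 and 0.447 CPM in the groups in that order. It was the only gene of the 24 that was lower in resistant than in parental cells both untreated (-0.53 ± 0.16, adjusted p = 0.00664) and on the drug (-0.86 ± 0.20, adjusted p = 4.39e-04), the first of which was lost without resistant untreated library 1 (adjusted p = 0.0665). On the drug it fell by 0.75 ± 0.20 in resistant cells (adjusted p = 0.00335). In parental cells the value was -0.43 ± 0.16 (adjusted p = 0.0229), a call lost without either parental untreated library (adjusted p = 0.0753 and 0.0769) or parental indisulam library 1 (0.151).

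COL27A1, a fibrillar collagen of cartilage, was at 0.311 and 0.346, 0.200 and 0.349, 1.15 and 1.32, and 1.81 and 1.63 CPM. COL27A1 exceeded the parental level by 1.90 ± 0.20 log2 units in untreated (adjusted p = 1.70e-08) and 2.63 ± 0.21 in treated resistant cells (adjusted p = 8.51e-11). Its rise on the drug in resistant cells (0.47 ± 0.16, adjusted p = 0.0146) was lost without resistant untreated library 1 (adjusted p = 0.118) or resistant indisulam library 1 (0.0962). COL11A2, another cartilage fibril chain, was at 0.219 and 0.281, 0.440 and 0.426, 0.284 and 0.231, and 0.756 and 0.645 CPM. COL11A2 rose on the drug in both lines, by 1.41 ± 0.25 log2 units in resistant (adjusted p = 4.94e-05) and 0.79 ± 0.25 in parental cells (adjusted p = 0.0104), the latter lost without parental untreated library 1 (adjusted p = 0.101) or parental indisulam library 1 (0.0541). On the drug, resistant cells had more of it than parental cells (0.67 ± 0.22, adjusted p = 0.00822), which was lost without resistant indisulam library 1 (adjusted p = 0.0596).

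Of the FACIT and related collagens, COL12A1 and COL16A1 were higher in resistant cells. COL12A1 (ENSG00000111799, chromosome 6, 75084326 to 75206267, minus strand), which decorates collagen I fibrils, was at 2.05 and 2.199 CPM without and 2.16 and 2.44 CPM with the drug in parental cells, and 8.24 and 8.96 CPM without and 12.8 and 12.7 CPM with it in resistant cells. Untreated resistant cells had 4.04 times the parental level (2.02 ± 0.08, adjusted p = 2.85e-16) and treated ones 5.53 times (2.47 ± 0.08, adjusted p = 4.72e-18). COL16A1 (ENSG00000084636, chromosome 1, 31652263 to 31704319, minus strand), a FACIT-related chain found near basement membranes and fibrils, was at 0.265 and 0.206, 0.133 and 0.129, 1.44 and 1.56, and 1.74 and 2.05 CPM. It was 6.32 times as high in untreated (2.66 ± 0.20, adjusted p = 3.01e-11) and 14.4 times as high in treated resistant cells (3.85 ± 0.23, adjusted p = 3.71e-13) as in parental cells. Both resistant groups lay above both parental groups for COL12A1 and COL16A1. The drug effects on COL16A1 were less firm. Its fall in parental cells (-0.84 ± 0.34, adjusted p = 0.0396) was lost without parental untreated library 1 (adjusted p = 0.228) or either parental indisulam library (0.102 and 0.128), and its rise in resistant cells (0.35 ± 0.14, adjusted p = 0.042) was lost without parental untreated library 1 (adjusted p = 0.0535), either resistant untreated library (0.167 and 0.0614) or resistant indisulam library 2 (0.379).

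COL9A2 and COL9A3, chains of the collagen IX of cartilage, differed in opposite directions between the untreated lines. COL9A2 (ENSG00000049089, chromosome 1, 40300489 to 40317813, minus strand) was at 1.43 and 1.57 CPM in untreated parental, 1.55 and 1.20 in treated parental, 0.351 and 0.493 in untreated resistant and 1.13 and 1.14 in treated resistant libraries. As with COL17A1, the resistant untreated libraries were lowest, at 0.280 of the parental untreated level (-1.84 ± 0.19, adjusted p = 1.53e-08), and the drug raised it 2.72-fold in resistant cells (1.44 ± 0.21, adjusted p = 4.47e-06). On the drug the lines differed by -0.27 ± 0.16 (adjusted p = 0.141), and by -0.42 without parental indisulam library 2. After the GC and length correction COL9A2 was called lower in resistant cells on the drug (adjusted p = 0.00205). COL9A3 (ENSG00000092758, chromosome 20, 62816244 to 62841159, plus strand) was at 0.0731 and 0.0655, 0.0400 and 0.0258, 0.270 and 0.339, and 0.386 and 0.593 CPM. In resistant cells it was 2.10 ± 0.40 log2 units higher untreated (adjusted p = 9.18e-05). On the drug the parental libraries held 3 and 2 reads and the resistant ones 26 and 57, a ratio of 15.5 in CPM with an exact binomial 95% interval of 6.37 to 48.9 for counting error only. Its rise on the drug in resistant cells (0.74 ± 0.28, adjusted p = 0.0309) was lost without resistant untreated library 1 (adjusted p = 0.2) or resistant indisulam library 2 (0.483). It overlaps TCFL5, transcribed the opposite way, to which 98.7% of their joint reads went, so these reads are uncertain. COL9A3 passed the filter on low counts only when resistant libraries, in which it was higher, were included.

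COL18A1 (ENSG00000182871, chromosome 21, 45405165 to 45513720, plus strand), the basement membrane collagen from which endostatin is cut, was the most read collagen. It was at 39.0 and 36.2 CPM without and 37.3 and 33.3 CPM with the drug in parental cells, and 55.0 and 59.98 CPM without and 47.5 and 47.7 CPM with it in resistant cells. It was 1.53 times as high in untreated resistant as in untreated parental cells (0.61 ± 0.06, adjusted p = 2.17e-06), and on the drug it fell by 0.27 ± 0.06 log2 units in resistant cells (adjusted p = 0.00208). Its value in parental cells was -0.09 ± 0.06 (adjusted p = 0.207, but 0.00111 without parental indisulam library 1 and 0.0473 and 0.0468 without either resistant untreated library). SLC19A1, on the other strand, shares 1563 exon bases with COL18A1 and held 51.3% of the reads of the pair.

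COL6A1 (ENSG00000142156, chromosome 21, 45981770 to 46005050, plus strand), a chain of the beaded filament collagen VI, was at 2.80 and 2.73, 3.15 and 2.57, 4.12 and 4.56, and 6.42 and 6.34 CPM in the same order of groups. It rose on the drug in resistant cells (0.56 ± 0.09, adjusted p = 1.45e-05) and was 1.56 times as high in untreated (adjusted p = 3.72e-06) and 2.23 times as high in treated resistant as in parental cells (adjusted p = 1.24e-10). COL13A1 (ENSG00000197467, chromosome 10, 69801880 to 69964275, plus strand), a transmembrane collagen of cell adhesion sites, was at 5.33 and 5.26, 2.40 and 2.03, 6.24 and 6.27, and 3.23 and 3.32 CPM. It fell on the drug in both lines, by 1.26 ± 0.09 log2 units in parental (adjusted p = 8.03e-11) and by 0.93 ± 0.09 in resistant cells (adjusted p = 4.26e-09), with every treated library below every untreated one. It was slightly higher in resistant cells, by 0.24 ± 0.08 untreated (adjusted p = 0.0104), lost without parental untreated library 2 (adjusted p = 0.0582), and by 0.57 ± 0.10 on the drug (adjusted p = 2.88e-05). COL28A1, at 0.183 to 0.374 CPM, was the only gene of the 24 called in none of the comparisons.

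Counted over the 24 genes, indisulam in parental cells changed 13 (4 higher, 9 lower), near the 58.2% of all tested genes that were called (31.6% higher and 26.6% lower). After the GC and length correction 8 were higher and 7 lower. COL13A1, COL7A1 and COL4A3 fell the most of these genes, and COL11A2, LAMA2 and COL4A6 rose the most. The median change was -0.11 for the 24 genes and 0.01 for all genes, and the DESeq2 Wald test called 8 of the 24 and 7984 of all 16661 genes. In resistant cells 16 were called on the drug (11 higher, 5 lower), or 66.7%, against 50.7% of all genes (24.9% higher and 25.8% lower). Of the 17 collagens 10 were higher and 3 lower, whereas of the 7 laminins 1 was higher and 2 were lower. COL9A2, COL11A2 and COL1A1 rose the most and COL13A1, COL5A2 and LAMA3 fell the most. The median change was 0.27, against 0.01 for all genes.

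Between the lines, 15 of the 24 genes differed in untreated cells (12 higher and 3 lower in resistant cells), or 62.5%, near the 60.1% of all genes, although 12 were higher against 30.3% of all genes. After the GC and length correction 11 were higher and 6 lower. The medians were 0.17 and -0.02 log2 units. On the drug 21 differed (17 higher, 4 lower), or 87.5%, against 69.5% of all genes, and 70.8% were higher against 34.6% of all genes and 16.7% lower against 34.9%. After that correction 13 were higher and 5 lower. The medians were 0.78 and 0.00 log2 units. The 11 genes higher in resistant cells both untreated and on the drug were LAMA3, LAMB3, COL18A1, COL12A1, COL13A1, COL6A1, COL4A4, COL16A1, COL27A1, COL7A1 and COL9A3. How many of all genes were higher in both was not counted, so this number has no background. The difference of COL18A1 on the drug (0.43 ± 0.06) was 0.03 after the GC and length correction (adjusted p = 0.405). COL17A1 and LAMC1 were called in opposite directions off and on the drug. For LAMC1 the untreated call (0.09 ± 0.03, adjusted p = 0.00968) was lost without either parental untreated library (adjusted p = 0.0542 and 0.0866) or resistant untreated library 1 (0.0575), with library totals alone (0.0543) and after the GC and length correction (0.855). These comparisons share libraries with those of the drug, so they are not independent of them.

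**Figure D4:**
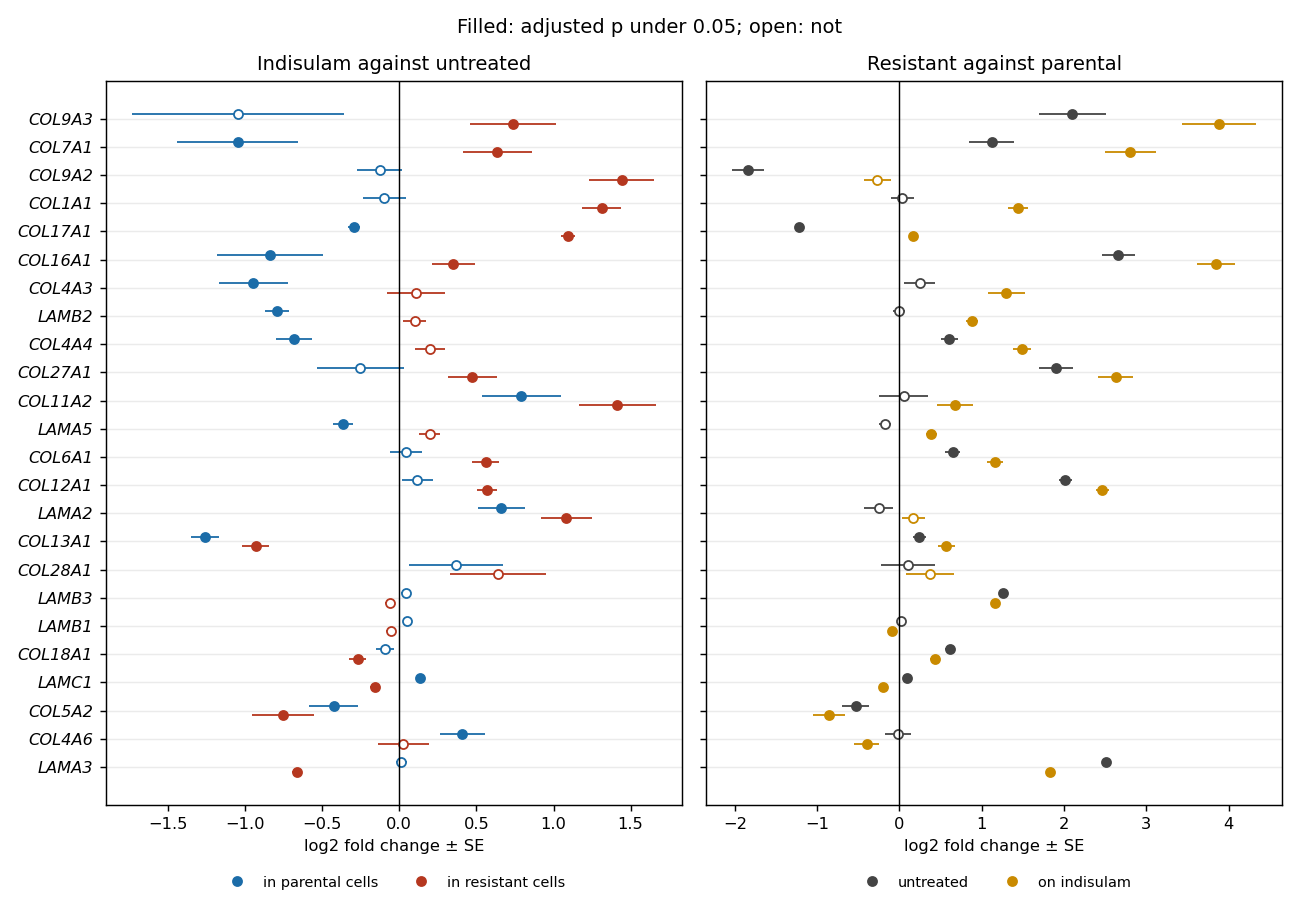
Log2 fold change with its standard error for the 24 genes, at left for indisulam against untreated in each line and at right for resistant against parental cells untreated and on the drug, ordered by the difference of the drug responses (filled points, adjusted p under 0.05). Collagens such as COL9A2, COL1A1 and COL17A1 lie to the right in resistant and at or left of 0 in parental cells, while LAMA3 lies left of 0 in resistant and near 0 in parental cells.

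To ask whether the lines responded differently to the drug, the response of resistant cells minus that of parental cells was tested as an interaction. It was called for 17 of the 24 genes, or 70.8%, against 50.1% of all genes. The difference was positive for 11 and negative for 0 of the 17 collagens, against 22.7% positive and 27.5% negative of all genes, while 2 laminins were positive and 4 negative. With library totals alone 14 of the 24 were positive and 2 negative. After the GC and length correction 11 of the 24 were positive and 5 negative. COL6A1 then lost its call and COL18A1 was called negative. COL18A1 was also called negative with DESeq2 size factors and with no filter on low counts, so the absence of negative collagens depends on the processing. The median was 0.54 log2 units over the 24 genes and 0.01 over all genes. The collagens with the firmest differences were COL17A1 (1.39 ± 0.06, adjusted p = 1.26e-14), COL1A1 (1.41 ± 0.19, adjusted p = 1.90e-06), COL9A2 (1.57 ± 0.26, adjusted p = 2.60e-05) and COL4A4 (0.88 ± 0.15, adjusted p = 3.74e-05). LAMB2 (0.89 ± 0.11, adjusted p = 4.72e-04) and LAMA5 (0.56 ± 0.10, adjusted p = 0.00354) were the positive laminins. The negative laminins were LAMA3 (-0.68 ± 0.05, adjusted p = 1.43e-10), LAMC1 (-0.29 ± 0.04, adjusted p = 2.38e-06), and by about 0.1 log2 unit LAMB1 and LAMB3. The last 2 were at 0.01 log2 units when libraries were scaled by their totals alone, and both calls were lost without most single libraries (adjusted p up to 0.42 for LAMB1 and 0.41 for LAMB3). COL9A3 (1.78 ± 0.74, adjusted p = 0.0479) and COL13A1 (0.33 ± 0.13, adjusted p = 0.0369) were lost in the same way with adjusted p up to 0.163 and 0.226. COL7A1 (1.69 ± 0.45, adjusted p = 0.00358) was lost without parental indisulam library 2 (adjusted p = 0.0516), and COL16A1 (1.19 ± 0.37, adjusted p = 0.00978) without parental untreated library 1 (0.0793). COL27A1 (0.73 ± 0.32, adjusted p = 0.0634) was called without parental indisulam library 2 (adjusted p = 0.0118) or resistant untreated library 2 (0.041), and COL18A1 (-0.18 ± 0.08, adjusted p = 0.0938) without parental untreated library 1 (0.0282), parental indisulam library 2 (0.00198) or resistant untreated library 1 (0.0211).

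Enzymes that modify and process collagen chains were mostly higher in resistant cells. Of 24 tested genes among 32 listed, 16 were higher and 2 lower in untreated resistant than in untreated parental cells, with a median of 0.35 log2 units, and 14 were higher and 4 lower on the drug. LOXL2, a lysyl oxidase that crosslinks collagen IV, went from 0.199 to 1.95 CPM (3.28 log2 units, adjusted p = 5.49e-13) between untreated parental and resistant cells, and FKBP10, a collagen chaperone, from 5.64 to 34.1 CPM (2.60, adjusted p = 5.69e-22). On the drug the lines differed by 4.43 log2 units for LOXL2 (adjusted p = 2.44e-15) and by 2.27 for PLOD2, a lysyl hydroxylase (adjusted p = 1.14e-21). The drug itself raised 7 and lowered 6 genes of the list in parental and raised 10 and lowered 11 in resistant cells, where PLOD2 rose by 0.90 log2 units (adjusted p = 2.56e-14). Of all genes, 30.3% were higher and 29.9% lower in untreated resistant cells and 34.6% and 34.9% on the drug, and the drug raised 31.6% and lowered 26.6% in parental and raised 24.9% and lowered 25.8% in resistant cells.

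Receptors for laminins and collagens were also mostly higher in resistant cells. Of 16 tested genes among 17 listed, 13 were higher and 2 lower untreated and 12 higher and 1 lower on the drug, against 30.3% higher and 29.9% lower untreated and 34.6% and 34.9% on the drug of all genes. Their summed level was 3617 to 3729 CPM in parental and 4660 to 5349 CPM in resistant libraries. SDC4, a heparan sulfate co-receptor of focal adhesions, went from 357 to 780 CPM (1.13 log2 units, adjusted p = 1.51e-20) between untreated cells, and ITGA2, the alpha chain of a collagen receptor, from 183 to 367 CPM on the drug (1.00, adjusted p = 6.44e-19). ITGA7 fell from 0.795 to 0.433 CPM between untreated cells (-0.88, adjusted p = 4.58e-04). In parental cells the drug lowered ITGA3, a receptor chain for LAMA3 and LAMA5 laminins, from 509 to 368 CPM (-0.47, adjusted p = 3.53e-12) and raised DDR2, a collagen receptor, from 0.998 to 2.28 CPM (1.19, adjusted p = 4.12e-08). ITGB4, the integrin beta chain of hemidesmosomes, was at 344 CPM in untreated and 252 in treated parental cells, and at 310 in untreated and 362 in treated resistant cells, with an interaction of 0.67 log2 units (adjusted p = 7.42e-06).

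Of 20 other basement membrane components, 9 were abundant enough to test, and 4 were higher and 4 lower in untreated resistant cells. AGRN, the heparan sulfate proteoglycan agrin, fell on the drug from 257 to 154 CPM in parental (-0.74 log2 units, adjusted p = 0.00231) and from 316 to 202 CPM in resistant cells (-0.65, adjusted p = 0.00441). NID1 and FBLN2, linkers of laminin to the collagen IV network, had no read in either resistant untreated library and 39 and 54 reads in all, and NID2 had 2 reads, so of the nidogens little was read anywhere. Among 31 matrix proteases and inhibitors, 21 were tested, with 11 higher and 3 lower in untreated resistant cells. For both lists the shares of all genes were 30.3% higher and 29.9% lower. MMP9, a gelatinase that cuts collagen IV, was at 0.0324 CPM in untreated and 0.0661 in treated parental cells, and at 4.87 in untreated and 3.31 in treated resistant cells, and MMP11 at 0.230, 0.132, 0.970 and 0.859 CPM. The parental untreated libraries held 3 and 4 reads of MMP9 and the resistant untreated ones 352 and 324, a ratio of 150 in CPM with an exact binomial 95% interval of 72.5 to 375 for counting error only. For MMP11 the untreated lines differed by 2.07 log2 units (adjusted p = 5.27e-07).

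TGF-beta, a known inducer of collagen genes, was represented by 24 genes of the pathway and its targets, all tested. Of these, 16 were higher and 4 lower in untreated resistant cells, with a median of 0.55 log2 units against -0.02 for all genes, and 16 were higher and 7 lower on the drug. Of all genes 30.3% were higher and 29.9% lower untreated and 34.6% and 34.9% on the drug. PMEPA1, a feedback inhibitor, went from 2.62 CPM in untreated and 2.39 in treated parental cells to 91.8 in untreated and 46.9 in treated resistant cells, and TGFBI, a secreted matrix protein, from 25.5 and 25.7 to 445 and 217 CPM. Both fell on the drug in resistant cells, PMEPA1 by 0.97 (adjusted p = 8.11e-17) and TGFBI by 1.04 log2 units (adjusted p = 2.95e-19), as LAMA3 did, whereas COL17A1 and COL1A1 rose. The interaction was positive for 3 and negative for 13 genes of the list, against 22.7% and 27.5% of all genes. Whether the collagen and laminin changes depend on this pathway was not tested.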

How the data were processed

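RNA from 8 libraries (4 groups of 2) was sequenced. The authors deposited raw read counts per gene, 1 file per library, without normalization. Per the labels and the study's methods, stranded libraries of polyadenylated RNA were sequenced paired-end, trimmed with SeqPurge and aligned to GRCh38 with HISAT2. The submitters' processing notes name HISAT2 2.2.1, Picard and HTSeq. The strand setting and annotation release of the counting are not given in the sources used here, so overlapping genes on opposite strands could share reads. Reads marked as duplicates stand in their own line and were not counted in genes, and the 9 lines that name no gene were left out. Reads without a gene or with an ambiguous one were 10.5 to 12.4% of these and the reads in genes together. Symbols, positions and lengths came from GENCODE 44, which matched 60419 of 60675 identifiers.

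From the counts, edgeR 4.0.16 (R 4.3.3) was used with filterByExpr (16661 genes kept), TMM scaling and a robust quasi-likelihood fit of 4 group means (4 residual degrees of freedom). Each SE is the log2 fold change over the square root of F. P-values were adjusted over all genes tested. The code was tested on simulated counts. Depth (65266253 to 108002436 reads per library) covers counting error only, and 2 libraries per group limit the precision. The alternatives were scaling by DESeq2 size factors or by library totals alone, no filter on low counts, a Wald test in DESeq2 1.42.0, only the groups compared, the replicate number as a block, glmTreat against 0.5 log2 units, thinning to the smallest library, the longest transcript for FPKM and each library left out. A GC and length correction (mgcv 1.9.3) was added after the data were seen. The rule chose 25 genes, 1 of which is not reported here, and counts are over the other 24. The members and gene lists were chosen with earlier results of these data known. Values in every library were given for the hemidesmosomal and widespread laminins, the main collagen chains and the 3 largest rises and falls of called members per comparison, and the 2 called genes with the largest change per list could be named.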

Additional observations from a re-analysis of the deposited data

Results flagged for a closer look

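The response to indisulam (treated minus untreated, log2) differed between resistant and parental cells, by the interaction test of edgeR with p adjusted over all genes, for 17 of the 24 genes, and these differences are given here by size. For the collagens the difference, resistant minus parental, was 1.78 for COL9A3 (-1.05 in parental cells, from 3 and 2 reads on the drug, and 0.74 in resistant cells), 1.69 for COL7A1 (-1.05 and 0.64), 1.57 for COL9A2 (-0.13 and 1.44), 1.41 for COL1A1 (-0.10 and 1.31), 1.39 for COL17A1 (-0.29 and 1.09), 1.19 for COL16A1 (-0.84 and 0.35) and 1.05 for COL4A3 (-0.95 and 0.11). It was 0.88 for COL4A4 (-0.68 and 0.20), 0.51 for COL6A1 (0.04 and 0.56), 0.45 for COL12A1 (0.12 and 0.57) and 0.33 for COL13A1 (-1.26 and -0.93), the last being a smaller fall in resistant cells.

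For the laminins it was 0.89 for LAMB2 (-0.79 and 0.10), 0.56 for LAMA5 (-0.36 and 0.20), -0.10 for LAMB3 (0.04 and -0.06), -0.11 for LAMB1 (0.05 and -0.05), -0.29 for LAMC1 (0.13 and -0.16) and -0.68 for LAMA3 (0.01 and -0.66). In 4 of the 17 genes (COL7A1, COL16A1, COL17A1 and LAMC1) the change was called in each line in opposite directions. How many of all genes did so was not counted. The calls of COL7A1 and COL16A1 in both lines, and that of LAMC1 in parental cells, were lost when certain single libraries were left out. Parental cells had the drug for 18 h and resistant cells without a break, so the line and the length of exposure cannot be told apart in these differences. No group had enough libraries to look for a single library apart from the rest.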

How the results depend on the processing

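With 17 alternatives, 1817 of 2015 changes of single genes kept their direction and side of the threshold, 153 lost the call, 39 gained it and 6 reversed. Reversed values were small: after the GC and length correction, chosen after seeing the data, COL18A1 was at 0.125 (indisulam in parental cells), LAMB1 at -0.0911 (untreated resistant against parental), LAMA5 at -0.013 and COL17A1 at -0.0651 (resistant against parental on the drug), and with library totals alone the interaction was at 0.00996 for LAMB3 and at 0.0077 for LAMB1. The cause was not tested. Tested against 0.5 log2 units, 2, 7, 9, 12 and 6 of the 24 genes and 1042, 879, 2582, 3509 and 908 of all genes were called for the drug in parental cells, the drug in resistant cells, the lines untreated, the lines on the drug and the interaction, since that test asks for a larger change. The DESeq2 Wald test called 8 of the 24 and 7984 of all genes for the drug in parental cells. Leaving out 1 library gave 9 to 14, 13 to 17, 13 to 16, 19 to 21 and 13 to 16 of the 24 genes, and 8159 to 9879, 6964 to 8704, 8656 to 10217, 10582 to 11850 and 7235 to 8329 of all genes, in the same order. A lone library was then assumed to vary like the other groups. Only the groups compared could not be used for the interaction.

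Library totals alone moved the median of all genes by 0.12 log2 units in the interaction, where 65.8% of calls were positive against 45.2% with TMM. For the drug 42.0% against 54.3% of calls were higher in parental and 59.7% against 49.1% in resistant cells, and for the lines 45.9% against 50.4% untreated and 59.7% against 49.8% on the drug.

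The replicate numbers of the titles did not pair the libraries, since deviations of same-numbered libraries correlated by -0.19 to 0.14 over the 6 pairs of groups. With the replicate number as a block 13, 15, 15, 21 and 16 of the 24 genes and 9537, 8319, 9865, 11472 and 8206 of all genes were called. It ended 2 calls, COL16A1 on the drug in resistant cells (adjusted p = 0.0574) and the interaction of LAMB3 (adjusted p = 0.058), and changed no other call of the 24 genes. Depth limits COL9A3, COL28A1, COL11A2 and COL7A1 most, with 145 to 329 reads over all libraries.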

Other observations

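The summed level of the 17 collagens was 92.2 and 89.7 CPM in untreated parental, 81.0 and 75.3 in treated parental, 99.9 and 107 in untreated resistant and 119 and 118 in treated resistant libraries, and that of the 7 laminins was 1339 and 1328, 1282 and 1284, 1817 and 1887, and 1790 and 1751 CPM. Most of the collagen sum is COL18A1 and COL17A1. Laminins were thus highest in untreated resistant and collagens in treated resistant libraries.

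COL15A1, the multiplexin related to COL18A1, had 41 reads and lay under the minimum. It was at 0.0183 and 0.0187 CPM in untreated parental, 0.0133 and 0.0517 in treated parental, 0.149 and 0.123 in untreated resistant and 0.0742 and 0.0832 in treated resistant libraries, and it was named after its values were seen.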
